A study of Homo sapiens with 46 samples.

Results

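The 34 genes described here are interferon-stimulated genes outside the best known families of that response, chosen by symbol from a list. Most encode proteins that act on viruses, on RNA or in the nucleus, and 11 encode other interferon-induced proteins. All 34 were found among the 61228 genes of the HCT116 count table and among the 30160 genes of the HEK293 count table. After the filter on low counts, 33 could be tested in each HCT116 fit and 30 in HEK293. RTP4 was too low to be tested anywhere, and CMPK2, IFI44 and BATF2 were too low in HEK293.

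Ku is the ring-shaped dimer of Ku70 (gene XRCC6) and Ku80, also called Ku86 (gene XRCC5), and the study asked how its loss affects innate immune responses to RNA. RNA was sequenced in 46 libraries from 2 human cell lines, HCT116 colon carcinoma and HEK293 embryonic kidney. HCT116 clones 1, 7 and 9 had an auxin-inducible degron (AID) on Ku80, a tag that makes the protein degradable. The degrading agent, indole-3-acetic acid (IAA), was given at 100 µM together with 0.5 µg/mL doxycycline for 1, 2, 4 or 6 days. Their controls received DMSO for 1 or 2 days, so the 4-day and 6-day libraries were compared with the 2-day controls. Every IAA comparison also contains the doxycycline. In the 4-day and 6-day comparisons with the 2-day controls, rises and falls with IAA cannot be told apart from effects of the extra days in culture. A CDK4/6 inhibitor (CDKi), which holds cells in G1, was given alone or with IAA and doxycycline for 2 or 4 days. The 1-day groups and the 2-day inhibitor groups held clones 1 and 9 only. Degron clones 1, 13 and 15 that were also MAVS-/- received IAA with doxycycline, or DMSO, for 4 days. MAVS is the mitochondrial adaptor through which the RNA sensors RIG-I and MDA5 signal. A second HCT116 model, Ku86Flox/-, had 1 floxed and 1 lost XRCC5 allele. It was treated for 4 days with 50 nM 4-hydroxytamoxifen (4OHT) or ethanol, either with the 4OHT-activated recombinase CreERT2 or without it, in 2 libraries per group. HEK293 clones Sa11, SB and TI were Ku70-/- and lived on an ectopic Ku70 that doxycycline induces, and were sampled on 1 µg/mL doxycycline and 8 days after its withdrawal. Their labels call all 6 libraries Ku70-/- but name the ectopic protein in a running series from Ku70 to Ku75, which was read here as Ku70 throughout.

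Library totals ran from 9527918 to 45747408 estimated counts in the degron libraries, from 13046742 to 17608963 in the Ku86Flox/- libraries and from 19568398 to 28483236 in HEK293. In counts per 1000000 (CPM), XRCC5 read 24.9 to 30.7 CPM with Cre and 4OHT against 256 to 258 CPM with ethanol, and XRCC6 read 339 to 605 CPM without and 2269 to 3529 CPM with doxycycline in HEK293. The degron acts on the protein, so XRCC5 RNA does not check it. MAVS RNA was lower but not absent in the MAVS-/- clones, at 108 to 184 CPM against 262 to 459 CPM in the other degron libraries. Of 10 colon epithelial markers 6 reached a mean of 1 TPM in HCT116 and 6 in HEK293, and CDX1 was at 0 in every library. Of 7 HEK293 markers 4 reached 1 TPM in HEK293 and 4 in HCT116, so these counts do not tell the lines apart. Of 8 blood markers 1 did so in HCT116 and 3 in HEK293, and of 7 stromal and endothelial markers 1 and 4. Within HCT116 the colon markers summed to 1912 to 4597 TPM per library and the HEK293 markers to 21.1 to 125 TPM. Within HEK293 the HEK293 markers summed to 581 to 773 TPM, the colon markers to 194 to 506 TPM and the blood markers to 264 to 753 TPM. HCT116 RNA was poly-A enriched and HEK293 RNA ribosome-depleted, so levels are not compared between the 2 tables. The same clones gave both arms of the degron, MAVS-/- and HEK293 comparisons, and the numbered Ku86Flox/- libraries are not said to be separate cultures, so p-values there reflect how these libraries vary, perhaps for technical reasons only.

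Interferons bind their receptors, and the kinases attached to these activate the factor ISGF3, of which STAT2 and IRF9 are parts. ISGF3 and the interferon regulatory factors bind the interferon-stimulated response element, whose core holds a repeated GAAA, and switch on genes that block virus entry, replication and release. Cells lacking infection express many of these genes at a low level, and sensing of double-stranded RNA or of cytosolic DNA can switch them on.

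The 5 genes below were chosen because their promoter window holds 2 matches to that core ahead of the start, which shows the letters that many of the 34 genes share. The windows come from RefSeq (GRCh38.p14), run from 250 bases before to 50 bases after each annotated start, and were found for 28 of the 34 genes. The letters searched were GAAA, any 2 bases and GAAA, on both strands, with overlapping matches counted separately. Capitals mark the matches, and each sequence reads 5′ to 3′ along the gene.
RTP4: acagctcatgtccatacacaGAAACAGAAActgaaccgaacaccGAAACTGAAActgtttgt
IFI44L: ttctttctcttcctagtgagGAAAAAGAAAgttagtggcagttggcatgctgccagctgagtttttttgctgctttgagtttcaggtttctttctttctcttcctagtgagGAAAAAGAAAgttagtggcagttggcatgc
BST2: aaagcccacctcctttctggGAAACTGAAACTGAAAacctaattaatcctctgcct
DDX60: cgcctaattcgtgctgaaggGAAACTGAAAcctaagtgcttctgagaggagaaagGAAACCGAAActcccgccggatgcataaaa
DDX60L: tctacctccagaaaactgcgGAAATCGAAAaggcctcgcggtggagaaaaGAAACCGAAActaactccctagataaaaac

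The stretches are chr3:187368323-187368384 on the plus strand for RTP4, chr1:78620264-78620404 on the plus strand for IFI44L, chr19:17405725-17405780 on the minus strand for BST2, chr4:168318776-168318860 on the minus strand for DDX60 and chr4:168480513-168480592 on the minus strand for DDX60L. In IFI44L the matches are 91 bases apart and each lies in a copy of the same 85-base stretch. The BST2 matches overlap, 6 bases apart, and so share a GAAA. Matches in the neighbouring paralogs DDX60 and DDX60L are 35 and 30 bases apart, and those of RTP4 24 bases apart. A match was found in 16 of the 28 genes (57.1%), against 4.38% of the 27305 genes in the RefSeq table. With a C required after the match it was 10 genes (35.7%) against 0.952%. At 4 days of IAA 14 of the 15 tested genes with a match rose, with a median log2 fold change of 1.89, where 17.9% of all genes tested rose, and 9 of the 12 without a match rose, with a median of 2.31. Both medians were the same with IFI44L and XAF1 at their lower bounds. These shares were not tested against each other, and a match is a description of sequence, not a shown binding site.

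**Figure D1:**
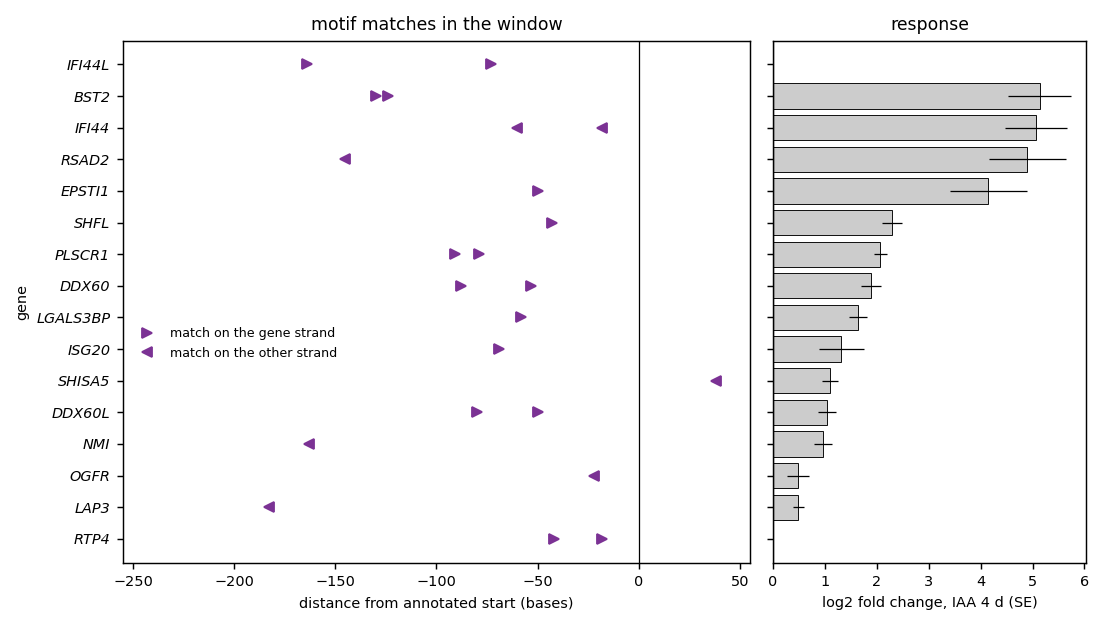
Position of each match to GAAA, any 2 bases and GAAA, relative to the annotated start in bases (left, arrowheads show the strand) and the log2 fold change with its standard error after 4 days of IAA (right) for the 16 genes with a match. IFI44L has no bar because its controls were at 0, and RTP4 none because it was not tested; 15 of the 16 genes have a match ahead of the start, and in SHISA5 it lies after it.

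After 4 days of IAA most of these genes were higher than in the 2-day controls. The extra days in culture cannot be told apart from IAA and doxycycline in this comparison. With the edgeR quasi-likelihood test, 28 of the 33 tested rose at an adjusted p under 0.05, while 17.9% of all 18877 tested genes did, and 0 fell, against 14.9% of all genes. Of the 28, 26 rose at least 2-fold, and the share of all genes that did was not counted. Without the 4-day library of clone 1, 27 rose and 1, LY6E, fell (adjusted p = 0.0465), where 17.5% and 15.1% of all genes did. The median log2 fold change of the 33 was 2.07 and that of all genes 0.04.

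**Figure D2:**
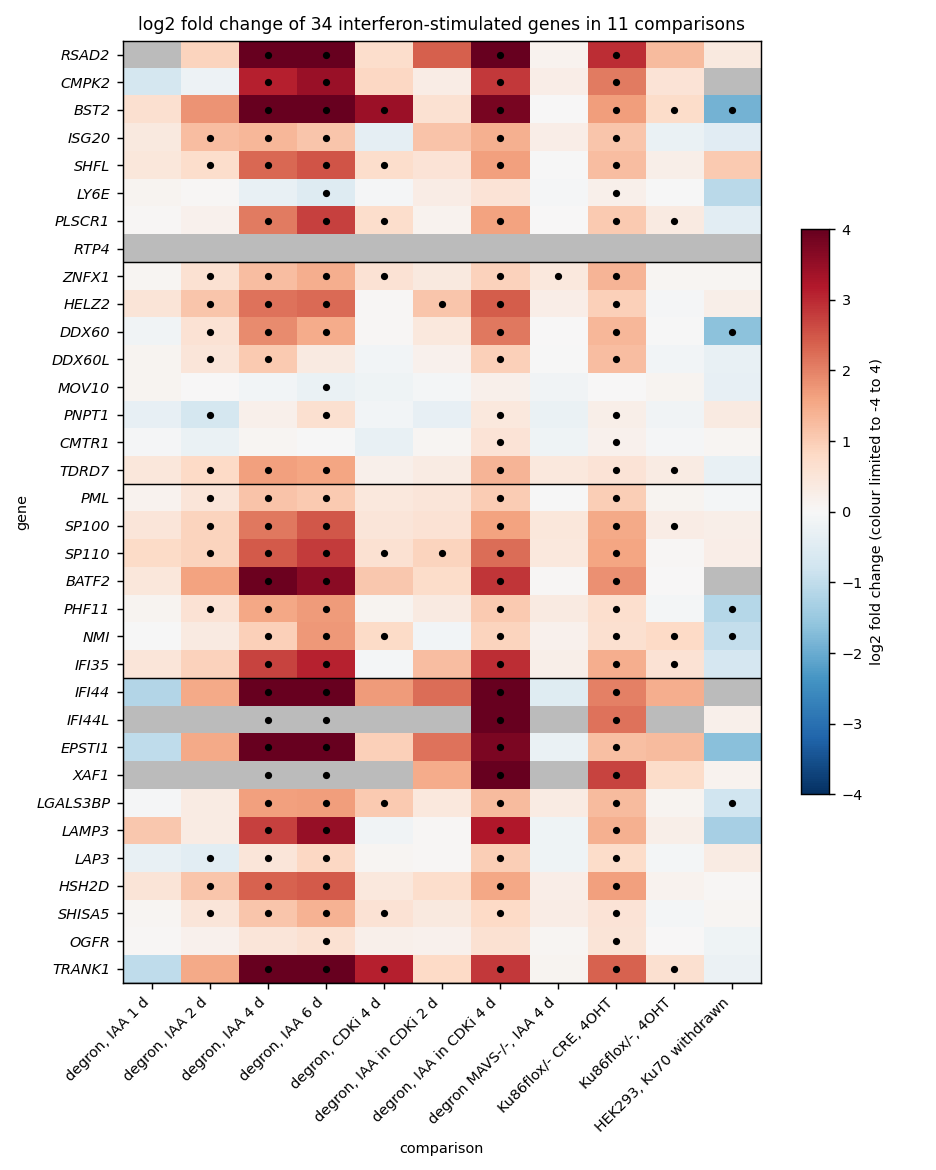
Log2 fold change of the 34 genes (rows, by role) in 11 comparisons (columns), with a dot where the edgeR adjusted p was under 0.05. Grey cells were untested or had a group at 0 counts; the column for 4 days of IAA holds 28 dots, all on higher values.

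Levels of different genes can be compared in TPM, a share of transcripts that accounts for length. In the 2-day controls LY6E, a membrane-anchored protein that blocks fusion of several viruses, was highest at 288 ± 13.1 TPM (SD, n = 3), and LGALS3BP, a secreted glycoprotein that binds galectins, followed at 233 ± 11.8 TPM. In all, 10 genes lay under 1 TPM, RTP4, XAF1 and IFI44L at 0. After 4 days of IAA LGALS3BP led at 665 ± 263 TPM (n = 3), LY6E stood at 202 ± 36.2 TPM and SP100 at 178 ± 26.2 TPM, and only RTP4 and TRANK1 were under 1 TPM. Some genes with large fold changes were still low: RSAD2 was at 2.54 ± 1.43 TPM, TRANK1 at 0.714 ± 0.388 TPM, IFI44L at 1.91 ± 2.15 TPM and XAF1 at 1.91 ± 0.967 TPM. BST2 was at 17.7 ± 14.3 TPM and IFI44 at 13.2 ± 5.36 TPM.

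Of the 7 tested antiviral enzymes and restriction factors, 6 rose after 4 days. RSAD2 encodes viperin, which makes a chain-terminating nucleotide that halts viral polymerases. It read 0.191, 0.218 and 0 CPM in control clones 1, 7 and 9, 0.423, 0.258 and 0.0917 CPM at 2 days, 3.82, 3.37 and 6.32 CPM at 4 days and 3.3, 2.97 and 4.39 CPM at 6 days of IAA. Its 4-day and 6-day libraries lay above every control, and the 4-day log2 fold change was 4.90 ± 0.74 (SE, adjusted p = 1.08e-05). CMPK2, the mitochondrial nucleotide kinase encoded beside it, read 1.72, 1.16 and 0.892 CPM in the controls, 12.2, 5.18 and 15.5 CPM at 4 days and 17.2, 13.1 and 11 CPM at 6 days. These groups did not overlap either (3.11 ± 0.40 at 4 days, adjusted p = 9.27e-07). The RefSeq spans of CMPK2 and RSAD2 overlap by 751 bases on chromosome 2, and the strand setting of the counting is not given in the sources used here, so reads from the overlap cannot be told apart.

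BST2, or tetherin, holds budding virus particles on the cell surface. It read 0.478, 0.145 and 0.198 CPM in the controls, 1.21, 0.58 and 1.01 CPM at 2 days, 17.7, 6.2 and 4.5 CPM at 4 days and 21.5, 11 and 14.9 CPM at 6 days. Every library from 2 days on lay above every control, and at 4 days the level was 35.3-fold higher (5.14 ± 0.61, adjusted p = 2.33e-07). SHFL, which inhibits ribosomal frameshifting on viral RNA, rose by 2.29 ± 0.19 and PLSCR1, a phospholipid scramblase with antiviral activity, by 2.07 ± 0.13 on the log2 scale. ISG20, an RNA exonuclease, read 3.92, 3.19 and 1.49 CPM in the controls and 13.6, 3.25 and 4.58 CPM at 4 days. These groups overlapped, and its call (1.32 ± 0.44, adjusted p = 0.021) was lost without the 4-day library of clone 1 (0.442) or the control of clone 9 (0.117), with the adjusted p of that fit in parentheses.

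LY6E did not pass the test at 4 days. It read 131, 153 and 138 CPM in the controls, 143, 97.6 and 101 CPM at 4 days and 80.6, 120.2 and 96.5 CPM at 6 days. The 4-day groups overlapped (-0.31 ± 0.18, adjusted p = 0.211), and at 6 days all 3 libraries were below the controls (-0.51 ± 0.18, adjusted p = 0.0315). The 6-day fall was lost without the 6-day library of clone 1 (0.149) or 9 (0.0754) or the control of clone 7 (0.109) or 9 (0.0579). RTP4, a chaperone of membrane receptors with antiviral activity, had 0 counts in 29 of the 32 degron libraries. It had 8 and 3 counts in clones 1 and 7 on the inhibitor with IAA for 4 days and 1 count in a MAVS-/- library. Its promoter holds the pair of matches printed above.

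**Figure D3:**
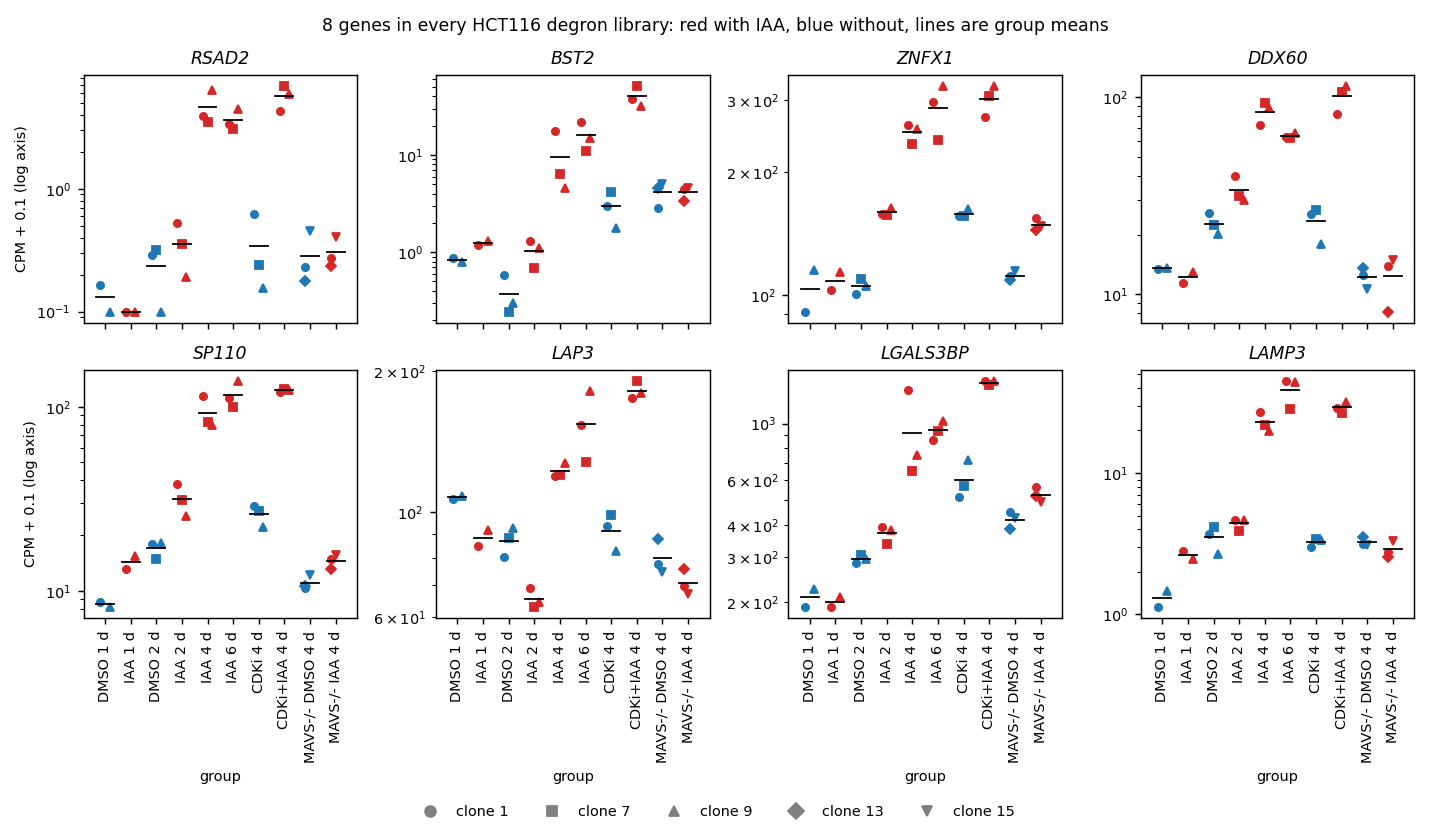
CPM + 0.1 on a log axis in 28 HCT116 degron libraries for 8 genes, with symbols for clones, red for IAA, blue for no IAA and lines for group means. BST2, SP110 and LAMP3 rise from 2 to 4 days of IAA, LAP3 is below its controls at 2 days and above them at 4 days, and the MAVS-/- libraries stay near their own controls.

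Among the 8 RNA helicases and RNA-processing enzymes 5 rose at 4 days. ZNFX1, a helicase that senses viral RNA at mitochondria, rose by 1.25 ± 0.10 on the log2 scale. HELZ2, a helicase and coactivator of nuclear receptors, read 27.8, 36.4 and 36.7 CPM in the controls, 81.7, 56.2 and 79.3 CPM at 2 days, 225, 109 and 122 CPM at 4 days and 131, 195 and 164 CPM at 6 days. All treated libraries from 2 days on exceeded the controls, and at 4 days it was 4.53-fold higher (2.18 ± 0.21, adjusted p = 8.88e-09). TDRD7, a Tudor-domain protein, rose by 1.64 ± 0.16. DDX60, a DExD/H-box helicase linked to RNA sensing, read 25.6, 22.5 and 20.1 CPM in the controls, 72.2, 93.2 and 87.8 CPM at 4 days and 63.1, 61.9 and 65.5 CPM at 6 days. Both times lay above the controls. Its paralog DDX60L read 102, 98.1 and 88.4 CPM in the controls, 185, 224 and 187 CPM at 4 days and 122, 117 and 129.9 CPM at 6 days. DDX60L rose at 4 days (1.05 ± 0.18, adjusted p = 3.70e-05), did not pass at 6 days (0.35 ± 0.17, adjusted p = 0.12) and fell between these times (-0.69 ± 0.17, adjusted p = 0.0106). The paralogs resemble each other in sequence, so the counting could split reads between them.

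The other 3 of this group did not pass at 4 days. PNPT1, the mitochondrial polynucleotide phosphorylase that degrades RNA, read 56.1, 60.4 and 64.4 CPM in the controls, 39.2, 35.6 and 36.6 CPM at 2 days, 62.4, 73.5 and 73.3 CPM at 4 days and 96.6, 75.2 and 109 CPM at 6 days. It was thus below the controls at 2 days (-0.70 ± 0.14, adjusted p = 7.15e-04), within their reach at 4 days (0.21 ± 0.14, adjusted p = 0.265) and above them at 6 days (0.63 ± 0.14, adjusted p = 6.86e-04). CMTR1, which methylates the cap of messenger RNA, read 43.8, 47.5 and 42.8 CPM in the controls and 56.4, 41.1 and 45.3 CPM at 4 days, with overlapping groups. MOV10, a helicase that restricts retroelements, read 114, 126 and 115 CPM in the controls, 126, 112 and 91.6 CPM at 4 days and 90.6, 103 and 102 CPM at 6 days. Its 4-day groups overlapped and its 6-day libraries were all lower (-0.27 ± 0.10, adjusted p = 0.0371), a call lost without the control of clone 1 (0.0507) or 7 (0.147) or 9 (0.0552) or the 6-day library of clone 1 (0.14). None of these 3 genes holds the motif in its windows.

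All 7 nuclear body proteins and nuclear regulators rose at 4 days. PML, the scaffold of nuclear bodies that repress viral genomes, read 33.9, 35.3 and 38.3 CPM in the controls, 53.8, 49.5 and 47.5 CPM at 2 days, 106, 51.1 and 79.6 CPM at 4 days and 72, 81.8 and 68.2 CPM at 6 days. SP100, another resident of these bodies, read 55.7, 40.9 and 52.6 CPM in the controls, 104, 80.8 and 90.1 CPM at 2 days, 194, 185 and 264 CPM at 4 days and 306, 210.2 and 309.7 CPM at 6 days. Treated and control libraries did not overlap from 2 days on for either gene. At 4 days the fold was 4.32 for SP100 (2.11 ± 0.16, adjusted p = 1.20e-10) and 2.2 for PML (1.14 ± 0.16, adjusted p = 3.37e-06). SP110, a relative of SP100, rose by 2.45 ± 0.16, and BATF2, a leucine zipper factor, by 3.91 ± 0.67 on the log2 scale. IFI35 and NMI, partners that bind each other, rose by 2.70 ± 0.36 and 0.97 ± 0.17, and the zinc finger protein PHF11 by 1.53 ± 0.18.

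Of the remaining 11 genes 10 rose at 4 days. IFI44 and IFI44L are neighbours on chromosome 1, 3643 bases apart. IFI44 read 0.478, 0.0726 and 0.0991 CPM in the controls, 9.05, 4.58 and 7.82 CPM at 4 days and 17.6, 12.5 and 11 CPM at 6 days (5.06 ± 0.60 at 4 days, adjusted p = 2.27e-07). IFI44L had 0 counts in all 3 controls and read 2.23, 3.13 and 1.11 CPM at 4 days and 7.24, 5.8 and 6.06 CPM at 6 days. Against a floor of 3 counts over the control group it was at least 25.7-fold higher at 4 days and at least 74.8-fold higher at 6 days. XAF1, an antagonist of the apoptosis inhibitor XIAP, had 0 counts in the controls and at 2 days of IAA, then read 1.91, 6.69 and 3.32 CPM at 4 days and 3.85, 7.28 and 2.4 CPM at 6 days, at least 43.5-fold and at least 47.6-fold above the same floor. The edgeR adjusted p at 4 days was 1.15e-05 for IFI44L and 1.35e-05 for XAF1. EPSTI1 and TRANK1, both under 1 TPM in the controls, rose by 4.15 ± 0.74 and 4.62 ± 0.85.

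LGALS3BP read 284, 306 and 295 CPM in the controls, 392, 339 and 384 CPM at 2 days, 1348, 651 and 754 CPM at 4 days and 862, 939 and 1025 CPM at 6 days. It was 3.11-fold higher at 4 days (1.64 ± 0.17, adjusted p = 2.68e-08). LAMP3, a membrane protein of lysosomes, read 3.63, 4.06 and 2.58 CPM in the controls, 4.59, 3.81 and 4.59 CPM at 2 days, 26.8, 21.9 and 19.8 CPM at 4 days and 44.6, 28.2 and 43.9 CPM at 6 days. Its 2-day libraries overlapped the controls, and its 4-day ones did not (2.73 ± 0.20, adjusted p = 1.10e-10). HSH2D, an adaptor with an SH2 domain, rose by 2.37 ± 0.23, and SHISA5, a membrane protein tied to apoptosis, by 1.1 ± 0.15. LAP3, a leucine aminopeptidase, read 80.4, 88 and 92.5 CPM in the controls, 69, 62.9 and 64.5 CPM at 2 days, 119.6, 120.2 and 127 CPM at 4 days and 153, 128 and 181 CPM at 6 days. It was below the controls at 2 days (-0.41 ± 0.10, adjusted p = 0.0061) and above them at 4 days (0.49 ± 0.10, adjusted p = 5.65e-04). OGFR, the opioid growth factor receptor, read 50.3, 55.2 and 59.7 CPM in the controls and 111, 63.2 and 58 CPM at 4 days, with overlapping groups (0.49 ± 0.21, adjusted p = 0.0774).

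At 1 day of IAA 0 of the 33 genes passed the edgeR test, where 0.117% of all genes rose and 0.0689% fell. DESeq2 called 0 of them as well, where it called 94 higher and 87 lower of 12264 genes. With only these 4 libraries in the fit edgeR called 4 higher and 2 lower of the 27 then tested, where 4.94% and 5.05% of all genes were called. At 2 days 13 rose and 2 fell, against 9.12% and 9.94% of all genes. The risers were ISG20, SHFL, ZNFX1, HELZ2, DDX60, DDX60L, TDRD7, PML, SP100, SP110, PHF11, HSH2D and SHISA5, led by ISG20 at 1.24 ± 0.44 and HELZ2 at 1.1 ± 0.21. LAP3 and PNPT1 were the genes that fell. Calls on DDX60, DDX60L, ISG20, LAP3, PHF11, PML and SHISA5 were each lost in 2 to 5 of the 6 fits that left out 1 library, with adjusted p-values of 0.0507 to 0.225, and each of the 6 libraries decided at least 1 of them. BATF2 passed at 2 days only with the clone as a block (adjusted p = 0.0456 against 0.101). All 13 were also called higher at 4 days, in a comparison with the same control libraries and so not independently. The 15 called at 4 days but not at 2 days included RSAD2, CMPK2, BST2, IFI44, IFI44L, XAF1 and LAMP3.

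Between 2 and 4 days of IAA 29 genes rose and 0 fell, where 4.73% and 3.44% of all genes did. With only these 6 libraries in the fit 20 rose, against 1.38% of all genes. Calls on BATF2, CMTR1, DDX60L, EPSTI1, NMI, PML, SHISA5 and TRANK1 were each lost without 1 or more of these 6 libraries, and that on CMTR1 also with the clone as a block (adjusted p = 0.0618). From 4 to 6 days only 5 rose and 1 fell, against 5.36% and 7.11%. The 5 were NMI (0.76 ± 0.16), PLSCR1 (0.65 ± 0.12), LAMP3 (0.77 ± 0.18), LAP3 (0.33 ± 0.10) and PNPT1 (0.42 ± 0.14), and DDX60L was the 1 that fell. LAP3 lost its call without the 4-day library of clone 1 (0.0553) or 7 (0.0782) or the 6-day library of clone 1 (0.0639) or 9 (0.214), and PNPT1 without the 4-day library of clone 1 (0.108) or 7 (0.0558) or 9 (0.0551) or the 6-day library of clone 1 (0.0946) or 9 (0.188). Without the 4-day library of clone 1, 9 genes rose and 1 fell, where 7.96% and 9.47% of all genes did. With only these 6 libraries in the fit 0 of the 33 passed, and 0.117% and 0.234% of all genes. Against the 2-day controls 29 were higher at 6 days and 2 lower, where 17.8% and 17.5% of all genes were, and 27 of the 28 genes called higher at 4 days were called again. At 6 days ISG20 lost its call in 5 and OGFR in 3 of the 6 fits that left out 1 library.

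Of 22 genes of the signalling chain that leads to these genes (interferons, receptors, kinases, factors, RNA sensors and feedback inhibitors), 20 could be tested. At 4 days 11 rose and 1 fell, where 17.9% and 14.9% of all genes did. STAT2 (1.52 ± 0.12) and IRF9 (2.11 ± 0.24) rose, as did IRF7 (3.31 ± 0.33), which amplifies interferon genes, and the sensors RIGI (3.56 ± 0.24) and IFIH1 (2.83 ± 0.22). IFNAR2, a chain of the type I receptor, fell by 0.42 on the log2 scale. IFNB1 had counts in 1 degron library only, and IFNL1 was too low to be tested. The near-identical IFNL2 and IFNL3, whose reads the counting could split, were called higher at 6 days, where their libraries read 0.0664 to 1.36 and 0 to 1.08 CPM.

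With the CDK4/6 inhibitor in both arms, IAA still raised most of these genes. At 4 days 30 of 33 genes rose with IAA and 0 fell, where 6.13% and 5.1% of all genes did. The median was 1.61 against -0.01 for all genes. This comparison has controls of the same day. BST2 read 2.87, 4.1 and 1.69 CPM on the inhibitor and 37.8, 51.4 and 32 CPM with IAA added, in clones 1, 7 and 9. RSAD2 went from 0.528, 0.141 and 0.0545 CPM to 4.24, 6.81 and 5.77 CPM, and LGALS3BP from 515, 572 and 723 CPM to 1466, 1412 and 1464 CPM. No library of these 3 genes overlapped. PNPT1 (0.43 ± 0.14) and CMTR1 (0.54 ± 0.12) passed here and not without the inhibitor, while LY6E (0.54 ± 0.18, adjusted p = 0.0562, and 0.0351 with the clone as a block), OGFR and MOV10 did not. PNPT1 lost its call without the inhibitor and IAA library of clone 1 (0.0965) or 7 (0.128) or 9 (0.0905) or the inhibitor library of clone 7 (0.0593) or 9 (0.292), and ISG20 without the inhibitor and IAA library of clone 1 (0.118) or 7 (0.0786) or 9 (0.051) or the inhibitor library of clone 7 (0.159) or 9 (0.084).

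The difference between the IAA responses with and without the inhibitor passed for 1 gene, LAP3, whose rise was larger with it (difference 0.50 ± 0.15, adjusted p = 0.048), where 2.19% of all genes had a larger and 2.5% a smaller response. With the clone as a block LY6E passed as well (0.84, adjusted p = 0.0335), and 0 passed when the other groups were left out of the fit, where 1.3% of all genes had a larger and 1.49% a smaller response. Of the 12 fits that left out 1 library 9 lost the LAP3 call, with 0.0554 to 0.204 as adjusted p. The median difference of the 33 genes was -0.29, a smaller response with the inhibitor, against -0.05 for all genes. At 2 days with the inhibitor 2 genes rose with IAA, against 0.297% of all genes: HELZ2 (1.11 ± 0.25) and SP110 (0.90 ± 0.20). Neither call held in any of the 4 fits that left out 1 library, and 8 rose and 0 fell when the other groups were left out of the fit, where 1.96% and 1.65% of all genes did.

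The inhibitor alone for 4 days raised 9 genes above the 2-day DMSO controls and lowered 0, where 3.85% of all genes rose and 3.84% fell. They were BST2 (3.42 ± 0.64), TRANK1 (3.09 ± 0.87), LGALS3BP (1.03 ± 0.17), NMI (0.75 ± 0.17), PLSCR1 (0.71 ± 0.12), SHFL (0.70 ± 0.18), SP110 (0.62 ± 0.16), ZNFX1 (0.59 ± 0.10) and SHISA5 (0.56 ± 0.15). HELZ2 (0.05 ± 0.20) and LAMP3 (-0.13 ± 0.21) did not pass. SP100 and XAF1 passed with the clone as a block (adjusted p = 0.0177 and 0.0399). Calls on NMI, SHFL, SHISA5, SP110 and TRANK1 were each lost without 1 or more of the 6 libraries, and without the control of clone 7 there were 5 in all, where 2.08% of all genes rose. The inhibitor and the extra days in culture cannot be told apart in this comparison. The 2-day inhibitor libraries were not tested against the 2-day controls.

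**Figure D4:**
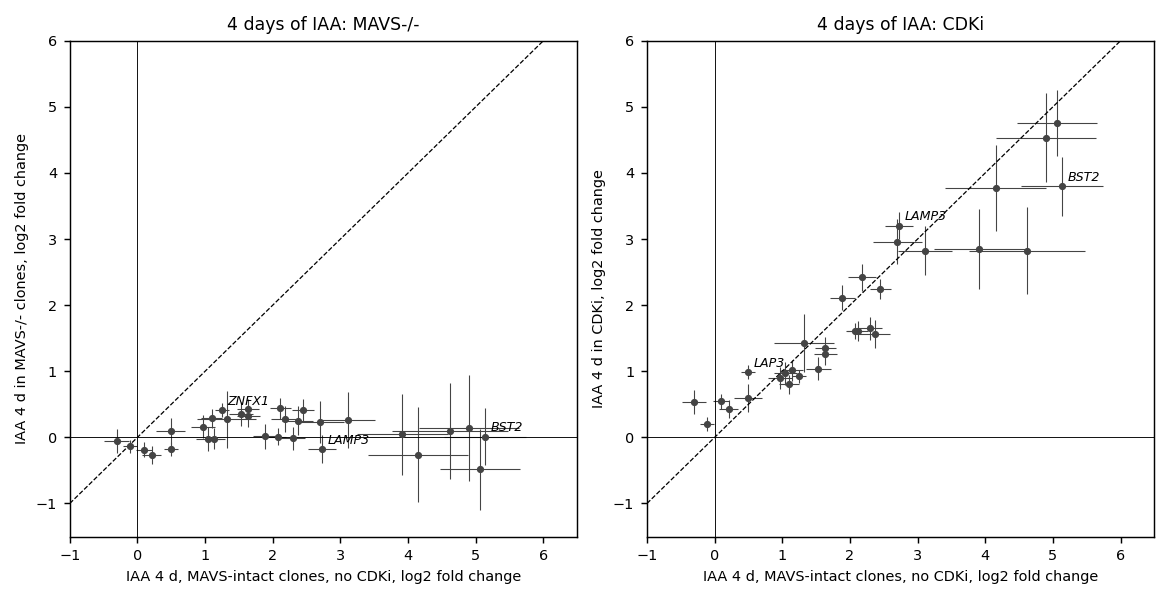
Log2 fold change with IAA at 4 days (x axis) against the same in MAVS-/- clones (left, y axis) and with the CDK4/6 inhibitor in both arms (right, y axis), 1 point per gene with standard errors and a dashed line of equality. The 2 genes whose controls were at 0 are not drawn. The left points lie near 0, and the right points lie on both sides of the line, BST2 below it and LAP3 above it.

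In MAVS-/- clones 1 of 33 genes rose after 4 days of IAA and 0 fell, where 4.73% of all genes rose and 3.15% fell. It was ZNFX1, which read 112, 109 and 115 CPM with DMSO and 154, 144 and 148 CPM with IAA in clones 1, 13 and 15 (0.41 ± 0.10, adjusted p = 0.00895). Without both libraries of clone 13 this call was lost (adjusted p = 0.0517). SP100 passed with the clone as a block (0.43, adjusted p = 0.0314 against 0.0825). The median of the 33 was 0.09. BST2 read 2.73, 4.47 and 4.89 CPM with DMSO and 4.36, 3.28 and 4.48 CPM with IAA, and LAMP3 3.06, 3.41 and 3.01 CPM and 2.67, 2.46 and 3.21 CPM. PLSCR1 read 21.2, 22.3 and 22 CPM and 21.7, 22 and 22.4 CPM. All 3 genes had overlapping groups. XAF1 and IFI44L had at most 1 count in a MAVS-/- library.

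The response itself differed between MAVS-intact and MAVS-/- clones for 25 of the 33 genes, smaller without MAVS in each, where 2.39% of all genes had a smaller and 2.46% a larger response. For 22 of them the responses differed at least 2-fold, and the share of all genes for which they did was not counted. The differences were -5.13 ± 0.76 for BST2, -4.76 ± 1.13 for RSAD2, -2.90 ± 0.29 for LAMP3, -2.06 ± 0.18 for PLSCR1 and -0.83 ± 0.14 for ZNFX1, with adjusted p-values of 1.50e-04, 0.0125, 3.24e-07, 2.12e-08 and 6.21e-04. The 8 that did not pass were IFI44L, NMI, ISG20, PNPT1, CMTR1, LY6E, OGFR and MOV10, and NMI passed with the clone as a block (adjusted p = 0.0185 against 0.0567). IFI44L had 0 counts in the controls of both sets of clones, so its test decides little. With IAA it had 1 count in each MAVS-/- library and 49, 52 and 14 counts in MAVS-intact clones 1, 7 and 9. The XAF1 call rests on controls with 0 or 1 count each. Without both libraries of clone 13 it was 24, and DDX60L lost its call (adjusted p = 0.0687). With only the 4 groups of this comparison in the fit it was 19, against 0.979% of all genes. RSAD2 and EPSTI1 lost their calls without the MAVS-/- control of clone 15 (0.123 and 0.0587), XAF1 without it or that of clone 1 (0.0925 and 0.0944) and TRANK1 without the MAVS-intact control of clone 7 (0.0671). SHISA5 lost its call in 5 of the 12 fits that left out 1 library. The MAVS-/- clones are other clones with 4-day controls, which cannot be told apart from the MAVS genotype in this test.

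The MAVS-/- clones did not start from the same levels. In DMSO 11 genes were higher and 5 lower than in the 2-day DMSO libraries of the MAVS-intact clones, shares near those of all genes (24.5% higher, 21.6% lower). BST2 stood at 4.03 ± 1.14 CPM against 0.274 ± 0.179 CPM (SD, n = 3 each), and IFI35 at 15.3 ± 4.57 against 3.79 ± 1.63 CPM. DDX60 and DDX60L were lower, at 12.2 ± 1.52 against 22.7 ± 2.76 CPM and 36.4 ± 7.6 against 96.2 ± 7.06 CPM. In the chain 4 of the 20 tested genes rose with IAA in MAVS-/- clones (RIGI, STAT2, IRF3 and IL10RB), where 4.73% of all genes did. RIGI rose by 3.56 ± 0.24 in MAVS-intact clones and by 0.87 ± 0.24 in MAVS-/- clones.

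With Cre, 4OHT raised 32 of 33 genes, all but MOV10, and lowered 0, where 26.4% of all 16726 genes rose and 27.5% fell. The loss of Ku86 and the activity of Cre itself cannot be told apart, since no group had active Cre without the floxed allele. In 21 of the 32 the rise was at least 2-fold, and the share of all genes with such a rise was not counted. The median log2 fold change of the 33 was 1.25 against -0.0042 for all genes. RSAD2 read 0.454 and 0.0605 CPM in the ethanol and 2.27 and 1.85 CPM in the 4OHT libraries, 2 in each group (2.94 ± 0.58, adjusted p = 8.14e-04). BST2 went from 29.7 and 31.3 CPM to 94.6 and 99.8 CPM and LGALS3BP from 417 and 411 CPM to 1000.3 and 1002 CPM. TRANK1 went from 7.32 and 7.45 CPM to 37 and 38.8 CPM (2.36 ± 0.10), SP100 from 49.2 and 54.1 CPM to 147 and 149 CPM and HELZ2 from 124 and 113 CPM to 230.2 and 232 CPM. Groups did not overlap for any of these 6 genes. The smallest rises were those of PNPT1 (0.23 ± 0.07), LY6E (0.20 ± 0.06) and CMTR1 (0.17 ± 0.07), each lost when a single library was left out. PNPT1 was lost without 4OHT library 1 (0.12), LY6E without 4OHT library 2 (0.13), EPSTI1 without ethanol library 1 (0.143) or 4OHT library 2 (0.169) and CMTR1 without any of the 4. MOV10 read 174 and 170.1 CPM and 169 and 176 CPM.

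Without Cre 4OHT raised 7 genes, where 7.26% of all genes rose: BST2 (0.75 ± 0.12), PLSCR1 (0.36 ± 0.11), TDRD7 (0.33 ± 0.08), SP100 (0.29 ± 0.08), NMI (0.79 ± 0.15), IFI35 (0.58 ± 0.11) and TRANK1 (0.63 ± 0.16). With DESeq2 it was 4 genes, against 5.95% of all genes, and with only these 4 libraries in the fit 3, against 4.29%. In all 0 fell, against 6.44% of all genes. Without the 4OHT library 1 there were 2 calls, against 2.68% of all genes, and IFI35, PLSCR1, SP100, TDRD7 and TRANK1 each lost theirs in 1 to 3 of the 4 fits that left out 1 library. The response with Cre exceeded that without it in 23 genes and was smaller in 0, where 18.8% and 22.4% of all genes were. BATF2 (1.81 ± 0.23), TRANK1 (1.73 ± 0.20), SP110 (1.53 ± 0.16) and CMPK2 (1.52 ± 0.44) had the largest passing differences, that of CMPK2 lost without the ethanol library 1 (0.0841). For NMI the 2 responses were 0.64 ± 0.12 and 0.79 ± 0.15, and their difference did not pass (-0.14 ± 0.19, adjusted p = 0.594). The very low RSAD2, IFI44, IFI44L, XAF1 and EPSTI1 did not pass either, with 0 to 0.829 CPM in the libraries without Cre.

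**Figure D5:**
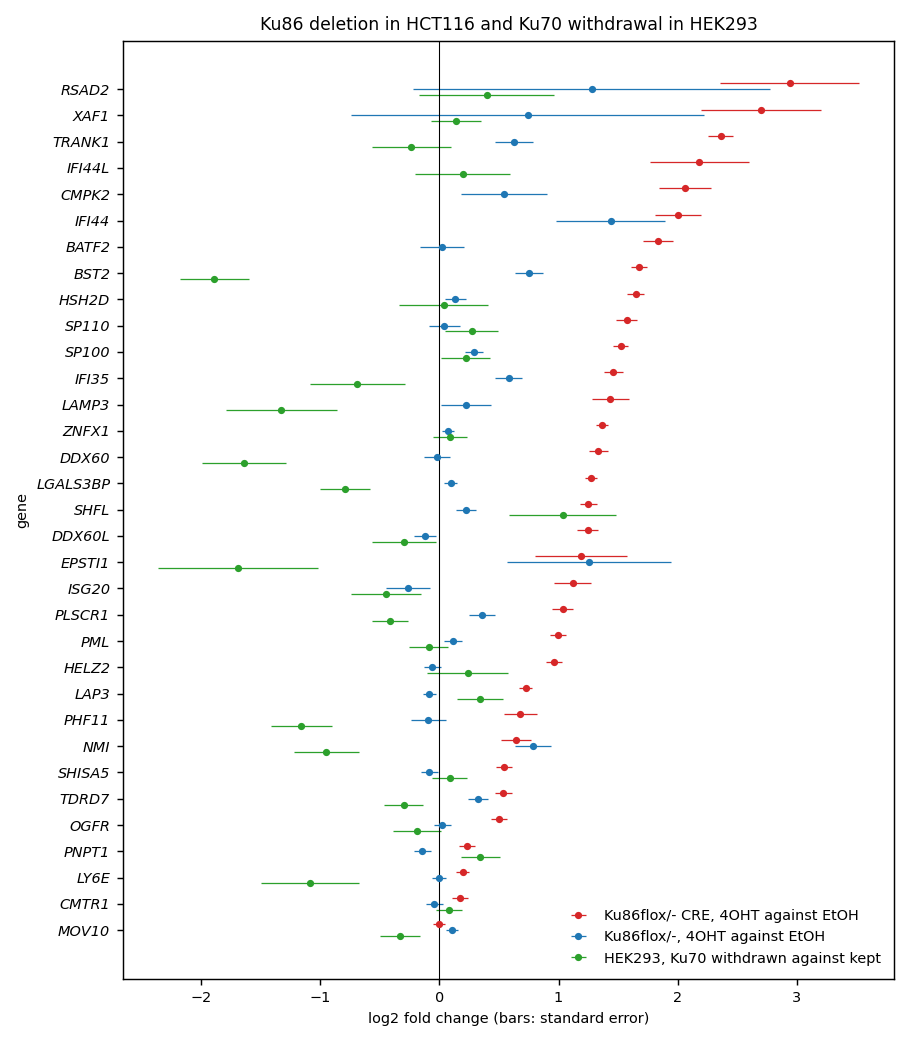
Log2 fold change with standard errors of each tested gene for 4OHT against ethanol with Cre (red) and without Cre (blue) in Ku86Flox/- cells and for Ku70 withdrawal in HEK293 (green). With Cre 32 of 33 genes passed the test, all higher, and MOV10 lies at 0; green points lie on both sides, with BST2, DDX60, PHF11, NMI and LGALS3BP passing on the left.

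All 28 genes that rose at 4 days of IAA also rose with Cre, and the comparisons share no controls. Since 32 of the 33 genes rose with Cre, where 26.4% of all genes did, this overlap was almost given by the Cre calls. The share of all genes that rose in both comparisons was not counted. Across 31 genes, without IFI44L and XAF1, whose degron controls were at 0, the log2 fold changes had a Pearson correlation of 0.858 and a Spearman correlation of 0.873. This describes genes measured in the same libraries and with the same lengths and base composition, which are not independent replicates. The sizes differed: BST2 had 5.14 with IAA and 1.67 with Cre, PLSCR1 2.07 and 1.03, and ZNFX1 1.25 and 1.36. These differences were not tested, since the series were fitted apart.

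In HEK293 cells 0 of 30 genes rose 8 days after Ku70 withdrawal and 5 fell, where 11.1% of all 15549 genes rose and 10.9% fell. The median log2 fold change of the 30 was -0.21 against 0.0042 for all genes. BST2 read 5.84, 5.65 and 4.68 CPM with doxycycline and 1.44, 1.23 and 1.69 CPM without it in clones Sa11, SB and TI (-1.89 ± 0.29, adjusted p = 0.00325). DDX60 read 14, 16.1 and 10.0 CPM and 2.65, 6.79 and 3.47 CPM (-1.64 ± 0.35, adjusted p = 0.0119). Every library without doxycycline was below every library with it for both genes. PHF11 (-1.16 ± 0.26), NMI (-0.95 ± 0.28) and LGALS3BP (-0.79 ± 0.21) also fell. All 5 had risen with IAA at 4 days and with Cre in HCT116, as had 28 and 32 of the 33 genes tested there. LGALS3BP lost its call without the doxycycline library of clone Sa11 (0.084) or TI (0.0914), PHF11 without the withdrawal library of clone Sa11 (0.0534) and NMI in 5 of the 6 such fits. Leaving out 1 library gave 3 to 9 calls. Without the withdrawal library of clone SB 7 genes fell and 2 rose, PNPT1 and LAP3, where 14.3% and 17.6% of all genes did.

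With the clone as a block 10 genes fell and 1 rose in HEK293, against 17.8% and 16.9% of all genes, and DESeq2 called 8 lower, against 13% of all genes. EPSTI1, LAMP3, LY6E, MOV10 and PLSCR1 then fell as well, and PNPT1 rose. LAMP3 read 6.09, 12.6 and 5.11 CPM with and 2.07, 5.31 and 2.14 CPM without doxycycline, and LY6E 27.8, 19.3 and 20.3 and 15.8, 12.2 and 3.74 CPM. Each clone fell for both genes. SHFL, among the higher genes, read 0.55, 0.305 and 0.29 CPM with and 0.674, 0.759 and 0.912 CPM without doxycycline (1.03 ± 0.45, adjusted p = 0.13) and did not pass. SP100 (0.22 ± 0.21), PML (-0.09 ± 0.16), ZNFX1 (0.09 ± 0.14) and HELZ2 (0.24 ± 0.34) did not pass, with values on either side of 0. XAF1 was at 12.7 ± 2.46 TPM with and 13.9 ± 4.33 TPM without doxycycline (SD, n = 3). In the chain RIGI (0.99 ± 0.19), IRF1 (1.17 ± 0.17) and the feedback inhibitor SOCS1 (2.74 ± 0.40) rose and IL10RB fell. These were 3 and 1 of 17 tested genes in the fit without a block, where 11.1% and 10.9% of all genes rose and fell. Doxycycline itself differs between these arms, and it cannot be told apart from Ku70.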

How the data were processed

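RNA-seq was analysed in 46 libraries. The authors deposited estimated counts and TPM (transcript abundance scaled for length and depth) per gene for HCT116 and for HEK293, and the units were read per the file headers and the values. The submitters' processing notes name Salmon 1.10.2, kallisto 0.50.0, DESeq2 and GRCh38, with no role for each. The sources used here give neither strand setting nor gene annotation.

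Estimated counts were rounded and fitted in 3 tables: 32 degron libraries (18877 genes), 8 Ku86Flox/- libraries (16726) and 6 HEK293 libraries (15549). Each fit used edgeR 4.0.16 in R 4.3.3 (limma 3.58.1), with TMM scaling, filterByExpr, the quasi-likelihood test and Benjamini-Hochberg adjustment over all genes tested. The threshold was an adjusted p of 0.05. CPM are TMM-normalised within a fit, and standard errors are of log2 fold changes. Intervals between groups rest on 2 or 3 libraries each.

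The members, role groups and other lists were chosen with earlier results of these data known. Values per library are given for RSAD2, CMPK2, IFI44, IFI44L, XAF1, DDX60, BST2, HELZ2, SP100, PML, LGALS3BP, LAMP3 and genes that fell or did not pass after 4 days of IAA. Other genes were named after their values were seen.

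Alternatives were DESeq2 1.42.0 size factors and test, no filter, only the compared groups, a block for the clone or the replicate number, and leaving out each library. Leaving out both libraries of MAVS-/- clone 13 was added after seeing the data. Same clones pair the degron, MAVS-/- and HEK293 arms by design. Their deviations from the group means correlated by -0.113 to 0.182, 0.0621 to 0.273 and 0.245 to 0.467. Sequence windows came from RefSeq (GRCh38.p14), figures from matplotlib 3.10.9.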

Additional observations from a re-analysis of the deposited data

Results flagged for a closer look

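The rise after 4 days of IAA differed with and without the CDK4/6 inhibitor for 1 of 33 genes, by a test of the difference itself. That is 3.03%, near the shares of all genes (2.19% larger, 2.5% smaller), and 9 of 12 fits that left out 1 library lost it. The rise differed with and without MAVS for 25 genes, all smaller, where 2.39% of all genes had a smaller and 2.46% a larger response. The response to 4OHT differed with and without Cre for 23 genes, all larger, where 18.8% of all genes had a larger and 22.4% a smaller response. In each case a difference between groups was what brought the result here, and the causes were not tested.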

How the results depend on the processing

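The counts of genes called for 4 days of IAA (28), 6 days (31), 4 days with the inhibitor (30), the difference with MAVS (25), Cre (32) and the difference with Cre (23) stayed within 1.5 times under every alternative run, and no result reversed. Fitted on the compared groups alone, 19 of the 25 calls for the difference with MAVS and 20 of the 29 for 4 against 2 days were kept. Leaving out 1 library gave 27 to 29 (with 1 gene lower, LY6E, in the fit without the 4-day library of clone 1), 27 to 29, 28 to 30, 22 to 26, 29 to 31 and 23 to 24. It gave 0 at 1 day of IAA, 10 to 13 at 2 days (15 with all), 22 to 28 for 4 against 2 days (29) and 14 to 15 for the untreated MAVS-/- clones (16). Smaller counts moved. Fitted on the compared groups alone there were 6 at 1 day (0 in the full fit), 0 for 6 against 4 days (6), 8 at 2 days with the inhibitor (2), 0 for the difference with the inhibitor (1) and 3 without Cre (7). Leaving out 1 library gave 4 to 10 for 6 against 4 days, 5 to 9 for the inhibitor alone, 0 at 2 days with the inhibitor, 0 to 2 for the difference with it, 1 to 2 in MAVS-/- clones, 2 to 7 without Cre and 3 to 9 in HEK293 (7 lower and 2 higher in the last). No filter and DESeq2 each gave 2 for the difference with the inhibitor, 2 in MAVS-/- clones and 8 in HEK293, and DESeq2 gave 4 without Cre. Without clone 13 there were 0 in MAVS-/- clones. The cause was not tested.

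With the clone as a replicate block, there were 2 for the difference with the inhibitor, 2 in MAVS-/- clones and 11 in HEK293. The Ku86Flox/- libraries share only a number (correlations 0.0120 and 0.0632), and with that block CMTR1 lost its call with Cre (adjusted p = 0.0532). Beyond the calls named in the report, the block changed no other call. The motif with a C after it was found in 10 genes, against 16. Of the values for single genes under alternatives, 5977 kept their direction and side of the threshold, 213 lost and 112 gained a call. RSAD2, IFI44L and XAF1 rest on few counts in the controls.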

Other observations

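No clone led the genes at every time. After 2 days of IAA the highest of the 3 libraries was clone 1 for 20 of the 32 genes with counts, clone 9 for 12 and clone 7 for 0. After 4 days it was clone 1 for 21 of 33, clone 7 for 8 and clone 9 for 4, and at 6 days clone 9 for 15. With the inhibitor and IAA for 4 days clone 7 led for 17 of 34. XAF1 was highest in clone 7 in all 3 of these later groups. The genes share their libraries, so the counts are a description.

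Cells of the Ku86Flox/- line with CreERT2 and those without it differed before 4OHT in some of these genes. BST2 read 29.7 and 31.3 CPM with ethanol in the line with CreERT2 and 5.87 and 5.86 CPM in the line without it. IFI44 read 2.61 and 3.03 CPM against 0.302 and 0.231 CPM. Other genes overlapped or went the other way. LGALS3BP read 417 and 411 CPM against 398 and 435 CPM, and DDX60L 28.1 and 30.1 CPM against 36.7 and 31.2 CPM. These lines differ in more than treatment, and the differences were not tested.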
